A study of Mus musculus with 8 samples.

Results

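Corticosteroid receptors and genes known to respond to glucocorticoids were studied in a frontal region, the medial prefrontal cortex (mPFC), of C3H/HeN males, some of which had undergone maternal separation (MS). The set holds 32 genes picked for their known role as receptors, receptor partners, hormone-activating enzyme or responsive genes, out of 23435 genes with a tested probe, and the rule uses no measured value. Total RNA of the mPFC of 8 male mice was hybridised, with 1 single-colour Agilent array per mouse. The 4 MS mice (numbered 5.3, 7.1, 7.2 and 7.6 in their labels) were separated from the dam between postnatal days 2 and 14, while the dam herself underwent unpredictable stress, and the 4 control mice (6.2, 8.2, 8.4 and 8.5) were left undisturbed. All mice of both groups belonged to the inbred C3H/HeN strain, were weaned at postnatal day 21, performed operant tests for sweetened milk as adults, part of them under food restriction, and were food-deprived before sacrifice. The exposure acts on pups and dam together, so that the separation and the stress of the dam cannot be told apart. The mPFC was dissected as bulk tissue, in which fewer cells of a type and less RNA per cell cannot be told apart. Plasma corticosterone of these animals was not used here.

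In rodents, corticosterone enters the brain and binds 2 nuclear receptors, the mineralocorticoid receptor, of high affinity, and the glucocorticoid receptor, which is engaged when the hormone peaks with stress or with the active phase of the day. The bound glucocorticoid receptor leaves a chaperone complex, moves to the nucleus and binds response elements, palindromes near its target genes, where it induces kinases, transcriptional repressors, metallothioneins and metabolic genes. One of these targets, Fkbp5, encodes a chaperone partner that lowers the affinity of the receptor for the hormone, and thereby closes a short feedback loop. The mPFC is among the forebrain regions that restrain the stress axis through these receptors.

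Between arrays, the processed signal had its 75th percentile at 588 to 892, and 61.6% to 68.9% of 55681 probes were well above background. All 5 markers of cortical excitatory neurons were detected above background in each of the 8 mice. Markers of tissue next to the mPFC had uneven levels between animals, and whether this came from dissection was not tested. The summed signal of 8 olfactory bulb markers reached 21.3 in MS 7.6, 50.1 in control 8.4 and 14.0 in control 8.5, while the remaining 5 mice had 3.51 to 4.55, and that of 9 striatal markers was 75 in control 8.4, against 24.0 to 32.9 elsewhere. In both lists no marker was below background on all arrays. Control 8.4 also had the lowest median correlation with the other arrays (0.9879, against at least 0.9938). Values without this animal are added beside several of the results, and the part of the neighbouring tissue in the members' levels was not tested.

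Levels are log2 processed signals after subtraction of the 75th percentile of each array, and are not comparable between genes, since each gene was read with its own probe. A fold change is the mean level of MS mice minus that of control mice, on the log2 scale. Values of single animals are given in the order MS 5.3, 7.1, 7.2 and 7.6 and control 6.2, 8.2, 8.4 and 8.5. All 32 members exceeded the background of every array, and all were tested.

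None of the 32 members passed the test between MS and control mPFC. In limma with Benjamini-Hochberg adjustment over 34098 probes, 0 members and 0 probes passed an adjusted p of 0.05 (0% called over all genes), and the members had adjusted p-values of 0.9996 or more. Also, 0 members had an unadjusted p under 0.05, where 1.93% of all tested genes and 2.39% of probes passed. The 4 MS values overlapped with the 4 control values for every member (0 of 32), whereas the groups were apart for 1.33% of all genes, 0.803% with MS higher and 0.525% with MS lower. The fold change was above 0 for 13 members (40.6%, against 54.5% of all genes) and below 0 for 19, with a median of -0.02 against 0.01 over all genes. It reached 0.3 in size in 1 member, Hif3a, against 6.12% of all genes. For 31 of the 32 members the 95% confidence interval did not reach a group difference above 2-fold, up or down. The sign was the same in both rows of the slide, each of which held 2 arrays of each group, for 14 members and not for 18. As the 2 groups hold 4 animals each, the smallest p of an exact permutation test is 0.0286.

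**Figure D1:**
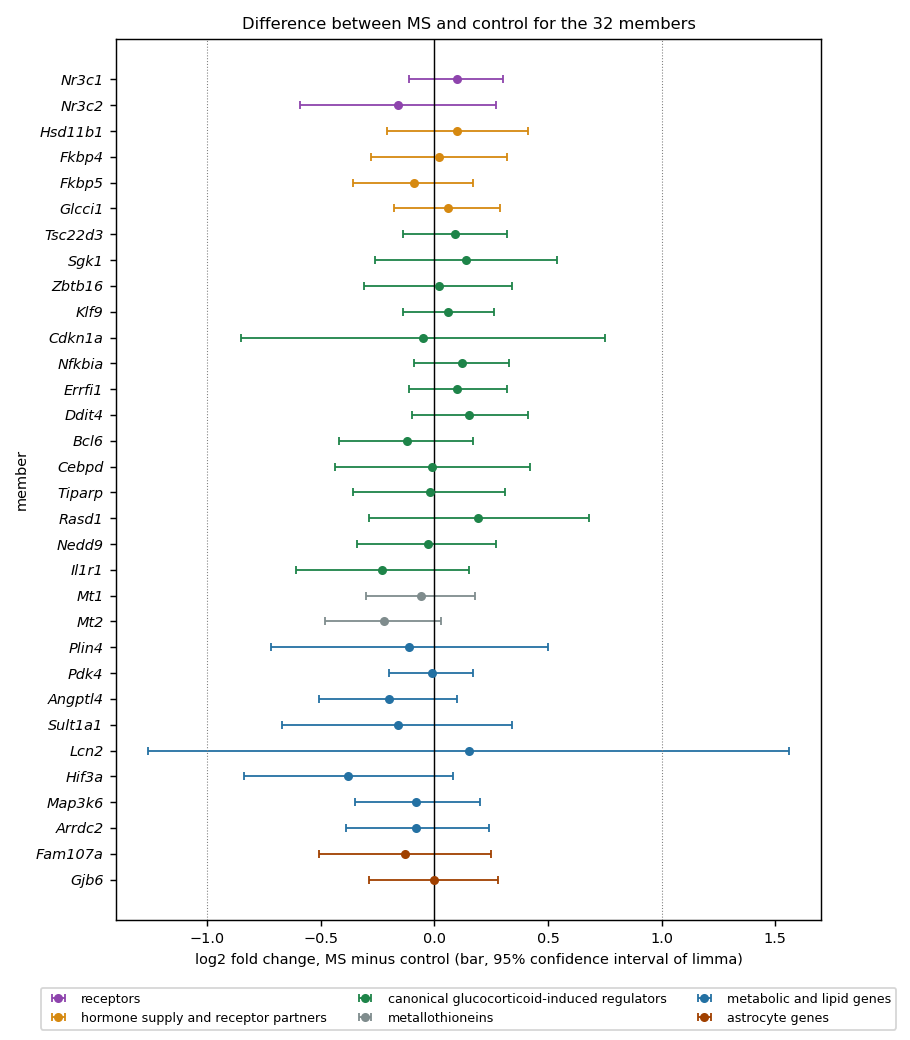
Log2 fold change of each of the 32 members, MS minus control, on the x axis, with its 95% confidence interval in limma as a bar, and members grouped by role from top to bottom and by colour. Every interval crosses 0, that of Lcn2 is the widest (-1.26 to 1.56), and it alone extends past the dotted lines at a 2-fold change.

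Neither corticosteroid receptor passed the test. The glucocorticoid receptor gene Nr3c1 had levels of 3.81, 3.83, 3.80 and 3.71 in MS mice, against 3.59, 3.89, 3.70 and 3.58 in control mice. The MS values lay close together within the wider control range, which control 8.2 extended upwards. The means were 3.79 ± 0.054 in MS and 3.69 ± 0.143 in control (SD, n = 4 each), a fold change of 0.10 (standard error 0.089, 95% confidence interval -0.11 to 0.30, exact permutation p = 0.229, two-sided). Without control 8.2 the 4 MS values stood above the 3 remaining control values, as did those of 3 other members discussed below in one direction or the other, and 6.2% of all genes stood apart under the same omission. The mineralocorticoid receptor gene Nr3c2 had levels of -2.99, -2.28, -2.70 and -2.95 in MS mice, against -2.58, -2.68, -2.83 and -2.18 in control mice. Its highest values, in MS 7.1 and control 8.5, belonged to different groups, and the fold change was -0.16 (standard error 0.189, interval -0.59 to 0.27). A dimmer second probe of Nr3c1 gave 0.17, and its values followed those of the bright probe poorly (r = -0.12 over the 8 animals).

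Genes that set hormone supply and receptor sensitivity did not pass it either. Hsd11b1, the reductase that regenerates active corticosterone from its inert ketone inside cells, had levels of -0.05, -0.22, 0.03 and 0.01 in MS mice, against -0.11, 0.16, -0.49 and -0.18 in control mice. The control animals spanned a wider range at both ends, with the lowest value in control 8.4, and the fold change was 0.10 (standard error 0.136) with that animal and -0.01 without it. Fkbp4, an immunophilin that favours hormone binding and nuclear transport of the receptor, had levels of 0.83, 0.41, 0.37 and 0.81 in MS mice, against 0.44, 0.61, 0.55 and 0.74 in control mice. The MS animals fell into a high and a low pair around all the control values, giving a fold change of 0.02 (standard error 0.131).

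Fkbp5, the immunophilin that opposes Fkbp4 and is itself induced by the receptor, had levels of 1.25, 1.47, 1.68 and 1.63 in MS mice, against 1.50, 1.52, 1.81 and 1.57 in control mice. The lowest value belonged to MS 5.3 and the highest to control 8.4, with the other 6 animals between 1.47 and 1.68 in both groups. The fold change was -0.09 (standard error 0.118, interval -0.36 to 0.17, exact permutation p = 0.486, two-sided), and -0.02 without control 8.4. Its single probe covers bases 28536060 to 28536119 of chromosome 17 (build mm9, minus strand).

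Glcci1, a transcript named for its induction by glucocorticoids, was read by 3 probes that varied together only loosely. The brightest gave 2.83, 2.40, 2.70 and 2.80 in MS mice, against 2.60, 2.69, 2.61 and 2.61 in control mice. Controls were tightly grouped inside the MS range, and the fold change was 0.06 (standard error 0.103). The dimmest probe, on chromosome 6 from 8545916 to 8545975 (mm9, plus strand), gave -2.42, -2.06, -2.30 and -2.30 in MS mice, against -2.68, -2.71, -2.88 and -2.97 in control mice. With this probe every MS mouse was above every control mouse, with a fold change of 0.54 (standard error 0.105, interval 0.30 to 0.78), but its adjusted p in limma was 0.9996 like that of the other members' probes. The remaining probe gave 0.13 (standard error 0.109), and the dim probe was uncorrelated with the brightest (r = -0.05). The probe was noted after the values of all 45 probes of the members were seen, and which of the 3 reports the main transcript was not tested.

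**Figure D2:**
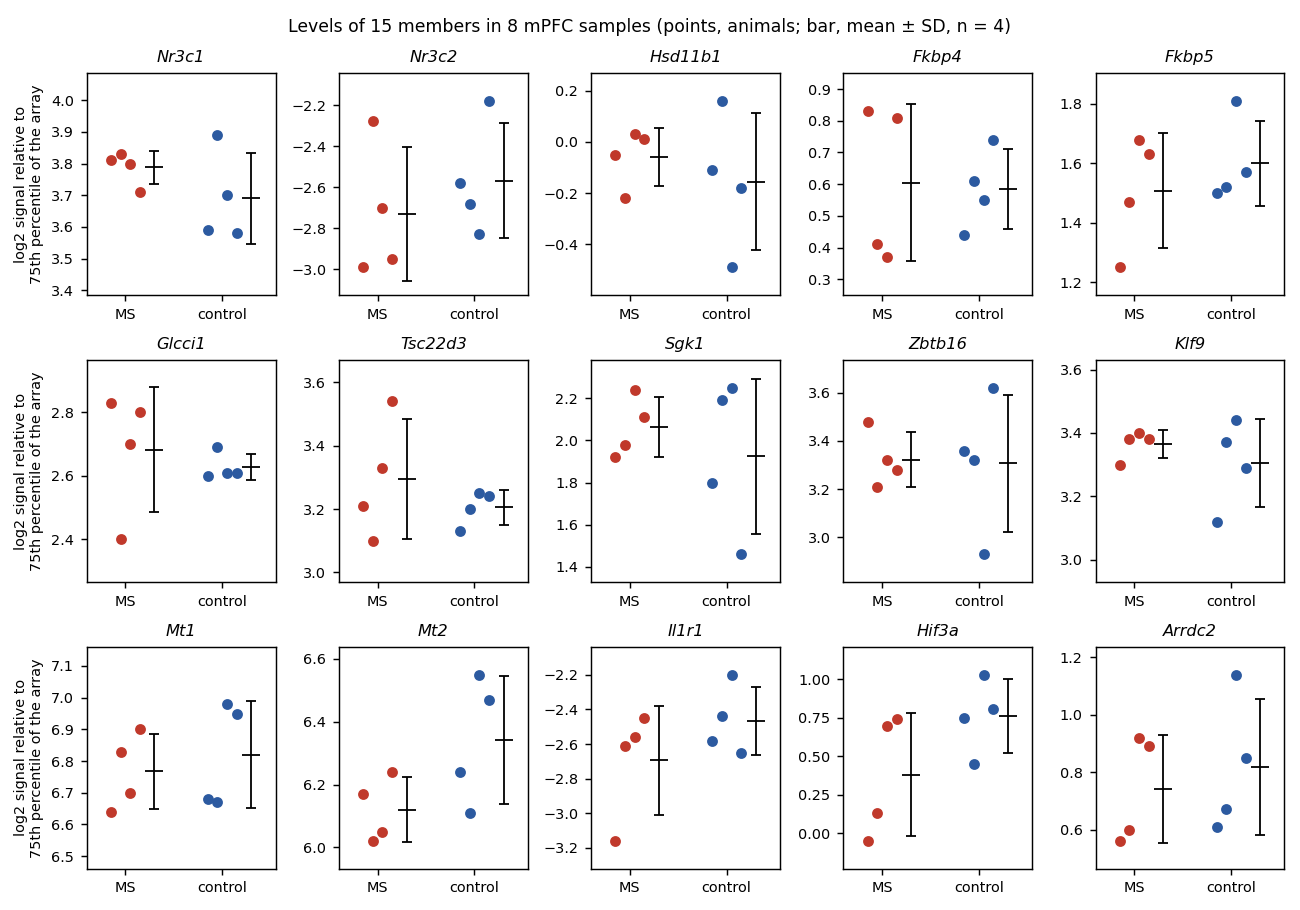
Levels of 15 members in the 8 animals (points, log2 signal relative to the 75th percentile of the array, each panel with its own axis), MS left and control right, with mean and SD as bars (n = 4 each). The groups overlap in every panel, and control 8.4 is the highest animal for Fkbp5, Sgk1, Klf9, Mt1, Mt2, Il1r1, Hif3a and Arrdc2.

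Among the 14 glucocorticoid-induced regulators, 8 had a fold change above 0 and 6 below, where 54.5% of all tested genes were above 0. Their fold changes lay between -0.23 and 0.19, with a median of 0.04. Tsc22d3, which encodes the leucine zipper protein GILZ, an anti-inflammatory mediator of the receptor, had levels of 3.21, 3.10, 3.33 and 3.54 in MS mice, against 3.13, 3.20, 3.25 and 3.24 in control mice. MS mice held both the lowest and the highest value (fold change 0.09, standard error 0.102). Zbtb16, a zinc finger repressor strongly induced by glucocorticoids in many tissues, had levels of 3.48, 3.21, 3.32 and 3.28 in MS mice, against 3.36, 3.32, 2.93 and 3.62 in control mice. The control extremes, 8.4 at the bottom and 8.5 at the top, enclosed all MS values (fold change 0.02, standard error 0.142). Klf9, a Krüppel-like factor that responds rapidly to corticosterone in neurons, had levels of 3.30, 3.38, 3.40 and 3.38 in MS mice, against 3.12, 3.37, 3.44 and 3.29 in control mice. Here too the MS animals varied less than the controls (SD 0.043 and 0.140) and lay within their range, with a fold change of 0.06 (standard error 0.0871).

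Sgk1 encodes a serum- and glucocorticoid-inducible kinase that acts on ion channels and transporters. Its levels were 1.92, 1.98, 2.24 and 2.11 in MS mice, against 1.80, 2.19, 2.25 and 1.46 in control mice. Controls formed a high pair (8.2 and 8.4) and a low pair (6.2 and 8.5), which enclosed the MS values, and the fold change was 0.14 (standard error 0.175, interval -0.26 to 0.54). Without control 8.5 it was -0.02. Sgk1 is shown by sequence because it is the member whose start region carries the complete palindrome that the receptor dimer binds. Of the 32 members, 27 were matched to start regions in the RefSeq table (build GRCm38.p6, 250 bases before to 50 after each start), while Zbtb16, Angptl4, Cebpd, Rasd1 and Nr3c1 were not. The palindrome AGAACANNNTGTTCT, searched on both strands, was found in 3 of 32851 start regions (0.00913%), and among the members in 1 of the 6 start regions of Sgk1, on chr10:21993640-21993939 (plus strand), where its first base lies at -189 from the start. It is printed in capitals here:
Sgk1: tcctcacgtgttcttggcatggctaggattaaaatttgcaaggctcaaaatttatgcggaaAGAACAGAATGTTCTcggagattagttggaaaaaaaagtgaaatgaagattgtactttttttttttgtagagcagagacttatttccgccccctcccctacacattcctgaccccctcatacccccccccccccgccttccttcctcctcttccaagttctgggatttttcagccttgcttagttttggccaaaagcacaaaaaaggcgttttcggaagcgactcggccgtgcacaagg

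The inner part of this element, ACANNNTGT, which the complete palindrome contains, was present in at least 1 start region of 5 of the 27 matched members (Sgk1, Mt1, Fam107a, Lcn2 and Map3k6). This made 7 of their 41 start regions (17.1%), against 6.85% of all start regions. These matches describe letters in a short window and do not show that the receptor binds there.

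The other 10 regulators are given mostly by range. Rasd1, a small GTP-binding protein first described as induced by dexamethasone, had the highest fold change of all members, 0.19 (standard error 0.213), with levels from -2.42 to -1.54 in MS mice and from -2.71 to -2.09 in control mice. MS 7.6 was the highest animal and control 6.2 the lowest, and the fold change was 0.00 without MS 7.6 and 0.06 without control 6.2. Ddit4, an inhibitor of the growth kinase complex mTORC1, ranged from 3.92 to 4.05 in MS mice and from 3.61 to 4.04 in control mice (0.15, standard error 0.112). Its low values were those of controls 6.2 and 8.5, which also had the lowest Sgk1. Nfkbia, the cytoplasmic inhibitor of NF-κB, ranged from 2.57 to 2.92 in MS mice and from 2.50 to 2.68 in control mice (0.12, standard error 0.0926). Errfi1, a feedback inhibitor of the EGF receptor, ranged from 2.03 to 2.25 in MS mice and from 1.89 to 2.15 in control mice (0.10, standard error 0.0953). Each of these 4 genes overlapped between groups. Nfkbia and the bright Glcci1 probe stood apart, with MS higher, when MS 7.1 was left out, an omission under which 2.95% of all genes did.

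Il1r1, the receptor that transmits interleukin-1 signals, had the lowest fold change of the regulators. Its levels were -3.16, -2.61, -2.56 and -2.45 in MS mice, against -2.58, -2.44, -2.20 and -2.65 in control mice. The low mean of the MS group came mainly from MS 5.3, and the fold change was -0.23 (standard error 0.167, interval -0.61 to 0.15). The transcriptional repressor Bcl6 ranged from 2.50 to 2.81 in MS mice and from 2.53 to 3.12 in control mice (-0.12, standard error 0.131, and -0.01 without control 8.4). The cell cycle inhibitor Cdkn1a (0.14 to 1.78 in MS mice, 0.37 to 1.27 in control mice, fold change -0.05) was the most variable of the regulators, with an SD of 0.742 in MS mice and 0.377 in control mice. The focal adhesion scaffold Nedd9 (-2.50 to -2.11 in MS mice, -2.50 to -1.98 in control mice), the ADP-ribosyltransferase Tiparp (0.42 to 0.71 in MS mice, 0.32 to 0.93 in control mice) and the basic leucine zipper factor Cebpd (0.65 to 1.16 in MS mice, 0.70 to 1.50 in control mice) had fold changes of -0.03, -0.02 and -0.01. For each of these last 3 genes the highest animal was control 8.4.

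The metallothioneins Mt1 and Mt2, small metal-binding proteins induced by metals and glucocorticoids and made mostly by astrocytes in the brain, are neighbouring genes on chromosome 8. Mt1 had levels of 6.64, 6.83, 6.70 and 6.90 in MS mice, against 6.68, 6.67, 6.98 and 6.95 in control mice. Mt2 had levels of 6.17, 6.02, 6.05 and 6.24 in MS mice, against 6.24, 6.11, 6.55 and 6.47 in control mice. For both genes controls 8.4 and 8.5, which had high olfactory bulb markers, were the highest, and the other controls overlapped with MS mice. MS 7.6, the MS mouse with such markers, was the highest of its group for both, and their part in these levels was not tested. The fold change of Mt2, -0.22 (standard error 0.113, interval -0.48 to 0.03), had the smallest exact permutation p of all members, 0.114 (two-sided), whereas that of Mt1 was -0.06 (standard error 0.106), and 0.00 without control 8.4. Mt2 kept its direction under every alternative tested, between -0.30 and -0.09, and the groups stood apart without control 8.2. The start regions of both genes are shown, with the cores of the metal response element, TGCACNC or TGCGCNC on either strand, in capitals. For Mt1 (chr8:94178839-94179138) these begin at -23, 3 and 21 from the start on which its region was placed. The Mt1 gene is listed in RefSeq with an earlier start, at 94178883. For Mt2 (chr8:94172368-94172667) the cores begin at -223, -128, -50 and 5 from the RefSeq start, with both regions on the plus strand of GRCm38.p6.
Mt1: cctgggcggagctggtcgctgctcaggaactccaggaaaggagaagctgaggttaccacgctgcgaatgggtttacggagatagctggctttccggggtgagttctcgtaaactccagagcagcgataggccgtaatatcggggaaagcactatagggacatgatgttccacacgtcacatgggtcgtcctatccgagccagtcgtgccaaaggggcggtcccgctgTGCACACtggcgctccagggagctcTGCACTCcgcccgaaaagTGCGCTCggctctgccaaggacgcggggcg
Mt2: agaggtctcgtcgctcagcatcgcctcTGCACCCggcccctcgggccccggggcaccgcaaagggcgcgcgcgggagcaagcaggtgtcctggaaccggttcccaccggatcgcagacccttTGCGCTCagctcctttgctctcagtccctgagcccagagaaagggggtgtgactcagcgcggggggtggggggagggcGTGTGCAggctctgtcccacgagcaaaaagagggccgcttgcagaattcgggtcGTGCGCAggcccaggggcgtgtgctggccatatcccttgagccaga

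At least 1 core of either form was present in 29.3% of the members' start regions and in 25.7% of all start regions, and at least 3 were present in 1.97% of all. Among the members, the start regions of Mt1 and Mt2 were those with at least 3. They held 3 and 4.

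Of the 8 metabolic and lipid genes, 7 had a fold change below 0, where 54.5% of all tested genes were above 0. The median of the 8 was -0.09. Only Angptl4 and Hif3a among these 7 kept their sign under every alternative. Hif3a, an alpha subunit of the hypoxia-inducible factors, was the member with the largest difference in size. Its levels were -0.05, 0.13, 0.70 and 0.74 in MS mice, against 0.75, 0.45, 1.03 and 0.81 in control mice. MS 5.3 and 7.1 were below all controls, while MS 7.2 and 7.6 lay among them. The means were 0.38 ± 0.401 in MS and 0.76 ± 0.240 in control (SD, n = 4 each), a fold change of -0.38 (standard error 0.204, interval -0.84 to 0.08, exact permutation p = 0.143, two-sided). Within the first row of the slide it was -0.74 and within the second -0.02. A dim probe of Hif3a gave -0.32 (standard error 0.168) and another gave 0.02 (standard error 0.214). The bright probe covers bases 17616855 to 17616914 of chromosome 7 (mm9, minus strand).

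Arrdc2, which encodes an arrestin-domain protein, had levels of 0.56, 0.60, 0.92 and 0.89 in MS mice, against 0.61, 0.67, 1.14 and 0.85 in control mice. MS mice formed a low and a high pair that overlapped with the controls, and the fold change was -0.08 (standard error 0.140). Angptl4, a secreted inhibitor of lipoprotein lipase, ranged from 1.13 to 1.39 in MS mice and from 1.05 to 1.61 in control mice (-0.20, standard error 0.134). Without control 8.2, its only control below the MS mice, the groups stood apart, as did those of Hif3a. The phenol sulfotransferase Sult1a1 ranged from 1.07 to 2.19 in MS mice and from 1.46 to 1.87 in control mice (-0.16, standard error 0.222). Its 2 probes gave the same picture (r = 0.99 between them), with MS 5.3 at the bottom and MS 7.6 at the top.

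The lipid droplet protein Plin4 ranged from -0.65 to 0.56 in MS mice and from -0.50 to 0.32 in control mice (-0.11, standard error 0.268). The kinase Map3k6 ranged from -0.61 to -0.06 in MS mice and from -0.38 to -0.18 in control mice (-0.08, standard error 0.122). Pdk4, which inhibits pyruvate dehydrogenase and is a usual fasting-responsive gene, ranged from -0.37 to -0.24 in MS mice and from -0.40 to -0.18 in control mice (-0.01, standard error 0.0827). All mice had been food-deprived alike. Pdk4 had the smallest standard error of the 32 members.

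Lcn2, a siderophore-binding lipocalin of neutrophils and reactive glia, was the most variable member. Its levels were -2.95, -1.09, -0.44 and -2.49 in MS mice, against -1.40, -2.99, -2.25 and -0.91 in control mice. High and low animals occurred in both groups, and the fold change of 0.15 had a standard error of 0.620. The neutrophil gene S100a9 had levels of -2.51, 1.51, 3.26 and -0.17 in MS mice, against -0.89, -2.15, -0.23 and 2.57 in control mice. Lcn2, S100a9 and S100a8 were highest in the same 3 animals in the same order, MS 7.2, control 8.5 and MS 7.1. The summed signal of the 5 blood markers found was 66.8 to 108 in MS mice and 71.0 to 116 in control mice. The haemoglobin gene Hba-a1, with levels of 6.04 to 6.83, made up most of this sum, which therefore says little about neutrophils. The part of blood cells in Lcn2 was not tested.

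Of the astrocyte genes, Fam107a, a stress-responsive actin-associated protein, ranged from 2.65 to 3.08 in MS mice and from 2.66 to 3.41 in control mice (-0.13, standard error 0.166). Its second probe, of similar brightness, gave 0.05 (standard error 0.0953), and both probes followed each other loosely (r = 0.42). Gjb6, a gap junction connexin of astrocytes, ranged from 3.18 to 3.72 in MS mice and from 3.33 to 3.57 in control mice (0.00, standard error 0.125). All 7 astrocyte markers were well above background on all arrays, with a summed signal of 250 to 289 in MS mice and 227 to 280 in control mice.

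Other genes of the pathway, listed by function, did not pass the test either. Of 34 genes, 18 of the receptor machinery (chaperones, coactivators, corepressors) and 16 further responsive genes, 33 were tested, and 0 passed the adjusted threshold or had groups that stood apart. Groups stood apart for 1.33% of all genes. The fold change was above 0 for 24, below 0 for 8 and 0.00 for Txnip, where 54.5% of all tested genes were above 0. The gene that was not tested, Hsd11b2, encodes the oxidase that inactivates corticosterone in mineralocorticoid target tissues, and its probe was not above background on any array.

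**Figure D3:**
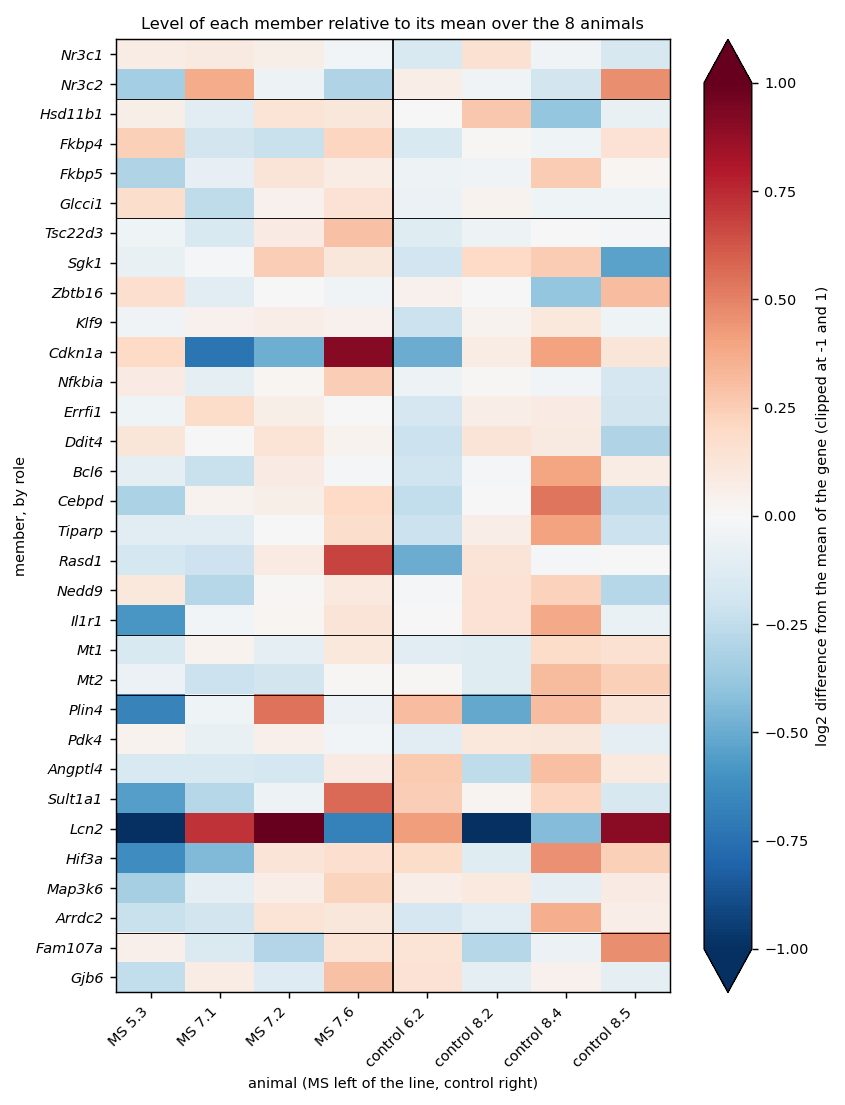
Level of each of the 32 members in each animal minus the mean of that gene over the 8 animals (colour, log2 scale, clipped at -1 and 1), with the 4 MS mice left of the line, the 4 control mice right of it, and members grouped by role. Control 8.4 holds the highest value for 14 members, MS 7.6 for 7, and MS 5.3 the lowest for 11. The same shares over all tested genes were not computed.

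High and low values were unevenly spread over the animals. Control 8.4 had the highest level of 14 of the 32 members and MS 7.6 of 7 members, while MS 5.3 had the lowest level of 11. The same shares over all tested genes were not computed, so that these counts cannot be called particular to the members. The mean over all members of the deviation from the 8-animal mean was -0.15, -0.08, 0.06 and 0.13 in MS mice, against -0.05, -0.04, 0.12 and 0.03 in control mice, so that the extremes of both signs, MS 5.3 and MS 7.6, belonged to the same group. For the 14 induced regulators it was -0.06, -0.12, 0.03 and 0.21 in MS mice, against -0.18, 0.07, 0.17 and -0.11 in control mice. The animals with high values, MS 7.6 and control 8.4, were also those with the highest olfactory bulb markers, whose part in this was not tested.

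Co-variation between animals was then read against Fkbp5, the common tissue readout of glucocorticoid action. Over the 8 animals, 23 of the 31 other members (74.2%) had an r above 0 with Fkbp5, against 40.3% of all genes, with a median r of 0.40 against -0.13. Control 8.4, the animal with the highest striatal and bulb markers, was the highest for Fkbp5 and for 13 of the other members. The share of all genes highest in this animal was not computed, and the part of this tissue in the relations was not tested. Without control 8.4 the median r was 0.23 for the members, against -0.02 over all genes, and 74.2% against 47.5% had an r above 0. An r of at least 0.8 was found for 3 members, Arrdc2, Il1r1 and Hif3a, where 0.717% of all genes reached it, and an r of -0.8 or lower for 0 members and 1.6% of all genes. Among 23417 genes compared with Fkbp5 in an exact permutation test over all pairings, adjusted by Benjamini-Hochberg, 0 passed an adjusted p of 0.05 and the smallest adjusted p was 0.66, which was also the smallest among the members. The smallest p that this design can give is 4.96e-05. After adjustment over the 23417 genes, a single gene at that p cannot pass 0.05. The adjusted values therefore cannot show whether any 1 member follows Fkbp5. The members were chosen as genes of 1 pathway, so that their median describes the list.

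**Figure D4:**
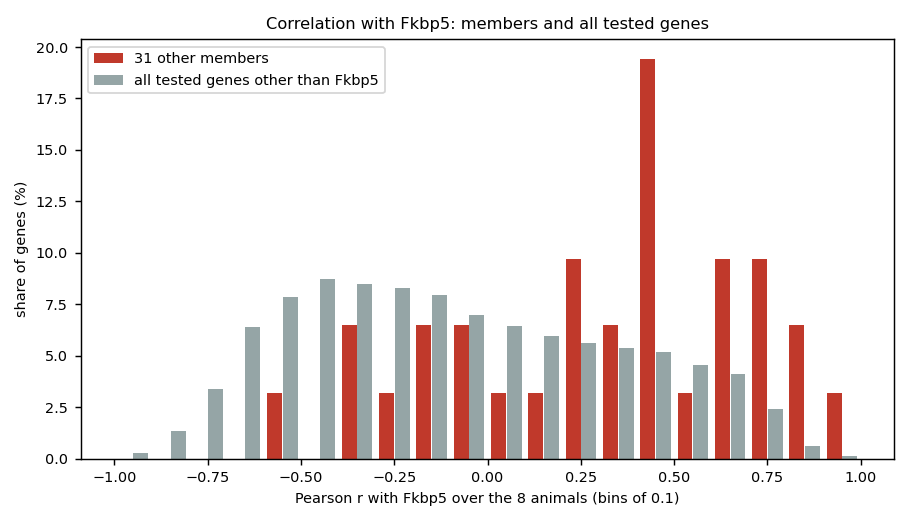
Share of genes (y axis, %) by Pearson r with Fkbp5 over the 8 animals (x axis, bins of 0.1), for the 31 other members in red and all tested genes other than Fkbp5 in grey. The members lie further to the right, with a median r of 0.40 against -0.13.

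Arrdc2 followed Fkbp5 most closely. The order of the 8 animals was identical for both genes (Spearman's rho of 1, exact permutation p = 5e-05, adjusted p = 0.581). Of the 23417 genes compared, Arrdc2 was the only 1 with an identical order, and exactly reversed orders were not counted. As 8 animals can be ordered in 40320 ways, a single identical order among so many genes is near what chance gives. Pearson's r was 0.92 (exact permutation p = 0.000918, adjusted p = 0.66), rank 14 of all genes. It was 0.92 for deviations from the group means, 0.86 without control 8.4 and 0.96 without MS 5.3 and control 8.4, the 2 animals farthest from the median of Fkbp5. The second Arrdc2 probe, which overlaps the first in sequence, gave an r of 0.93 with Fkbp5.

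Hif3a had an r of 0.88 with Fkbp5 (exact permutation p = 0.003, adjusted p = 0.66) and a rho of 0.71 (exact permutation p = 0.0576). Without the 2 farthest animals r was 0.61, and without control 8.4 alone 0.83. The 2 dim probes of Hif3a had lower r values with Fkbp5, 0.60 and 0.24. Il1r1 had an r of 0.89 (exact permutation p = 0.00796, adjusted p = 0.66) and a rho of 0.71 (exact permutation p = 0.0576). Its r was 0.84 without control 8.4 alone, but 0.23 without the 2 farthest animals together. Bcl6 had an r of 0.77 (exact permutation p = 0.0346, adjusted p = 0.66) and a rho of 0.90 (exact permutation p = 0.00456), with 0.82 without the 2 farthest animals and 0.56 without control 8.4. For Cebpd r was 0.80 when rounded, just under the limit, and fell to 0.40 without the 2 farthest animals. Without control 8.4 the limit of 0.8 was reached by 4 members, against 0.572% of all genes, and Map3k6 joined them with 0.89.

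**Figure D5:**
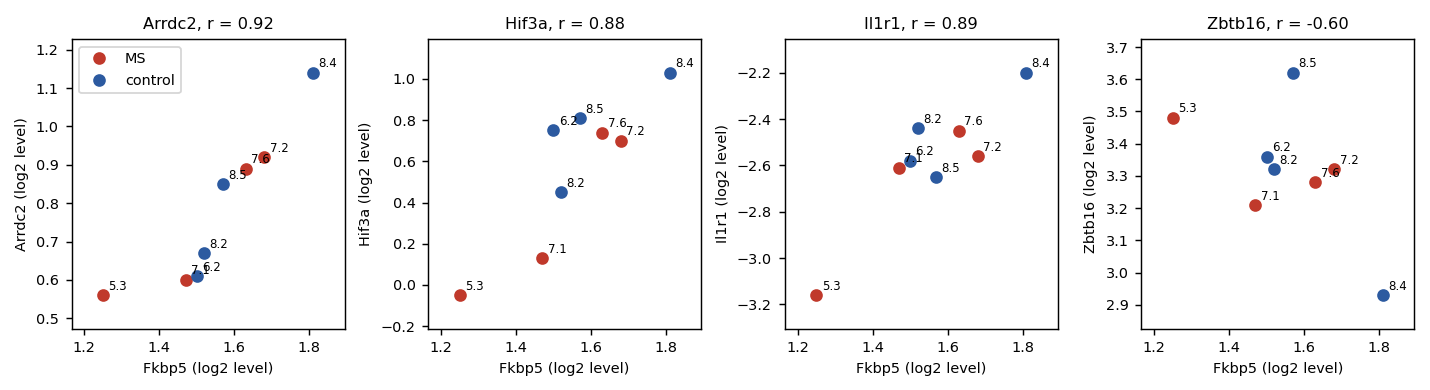
Level of Arrdc2, Hif3a, Il1r1 and Zbtb16 (y axes, log2) against the level of Fkbp5 (x axis, log2) in the 8 animals, labelled by their numbers, with MS mice in red and control mice in blue. Arrdc2 rises with Fkbp5 in the same order of animals (r = 0.92). Without MS 5.3 and control 8.4 together, the r of Il1r1 (0.89) becomes 0.23 and that of Zbtb16 (-0.60) becomes 0.15.

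The classical targets followed Fkbp5 to different degrees. Zbtb16 had the lowest r of all members, -0.60 (rho -0.38), which became 0.15 without the 2 farthest animals. Tsc22d3 had an r of 0.41 with a rho of 0.76, and 0.81 without the 2 farthest animals. Sgk1 had an r of 0.40 with a rho of 0.64, Klf9 of 0.47 with a rho of 0.69, and Mt2 of 0.47 with a rho of 0.40. The receptor gene Nr3c1 had an r of -0.23, and Nr3c2 of 0.00. The 16 further responsive genes, which are not members, had r values of both signs, from -0.77 (Cdkn1c) to 0.67 (Foxo1 and Anxa1). A positive r with Fkbp5 was thus not general among responsive genes. Of the receptor machinery, the chaperone Hsp90ab1 holds the receptor in its hormone-binding form. Hsp90ab1 had an r of -0.84 with Fkbp5 (exact permutation p = 0.0188) and a rho of -0.52 (exact permutation p = 0.197). Without the 2 farthest animals together, its r was 0.02.

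Over the 496 pairs of members the median r was 0.18, and r reached 0.9 in 4 pairs, which are given as a description. These were Cebpd with Tiparp (0.93, and 0.82 without control 8.4), Bcl6 with Arrdc2 (0.92 and 0.83), Fkbp5 with Arrdc2 (0.92 and 0.86) and Tsc22d3 with Rasd1 (0.90 and 0.90). Tsc22d3 and Rasd1 were both highest in MS 7.6. The lowest r was that of Zbtb16 with Cebpd, -0.91, and -0.77 without control 8.4. Nr3c2 and Nedd9 also ran opposite to each other, with -0.90 and, without control 8.4, -0.92. The same shares over pairs of all tested genes were not computed, so that these counts cannot be called particular to the members.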

How the data were processed

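The 8 mPFC samples, 4 MS and 4 control, were analysed with 1 array each, with groups and animal numbers taken from the sample labels. Deposited scanner files give the intensity of each spot from Agilent Feature Extraction 10.10.1.1, named in the submitters' processing notes, as background-subtracted signal with no normalisation between arrays, on array design 28005 with probe coordinates on mm9. A deposited table of log2 values, which the authors normalised, served as an alternative. Each column had an r of 0.9999 or more with the log2 signal of its own array and a median of 8.532 or 8.533, as after quantile normalisation. How its 34137 probes were selected was not stated.

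Control spots and outlier flags were removed, spots of a probe averaged, and the log2 processed signal taken minus the 75th percentile of the array. Tests were run on probes that exceeded background on every array of the MS or of the control group (34098 of 55681). The brightest probe stood for a gene, named through the RefSeq table of GRCm38.p6 where its accession (27235 probes) or name (4146) matched. Groups were compared in R 4.3.3 by lmFit and eBayes of limma 3.58.1 (two-sided, no covariate), adjusted by Benjamini-Hochberg over all tested probes, and correlations by exact permutation of 40320 pairings. Tables were read with data.table (version 1.17.8), the random block used statmod 1.5.0, and sequences and figures were made in Python 3.11.15 with pandas 2.3.3, numpy 2.4.6 and matplotlib 3.10.9. The fits were tested on simulated data.

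The members and lists were chosen with earlier results of these data known. All members are named, and values of every animal are given for 12 fixed members and for those with an unadjusted p under 0.05, groups apart, a log2 fold change of 0.3 or an r with Fkbp5 of 0.8 in size. The arrays shared a slide and a scan, with 2 arrays of each group per slide row. The number before the point in the label is shared by 3 MS mice and by 3 controls without a stated meaning, so that p-values measure the spread between these animals. No such number occurs in both groups. The paper assigned whole litters to MS or control, and the litter of each mouse is not given. Littermates would not be independent replicates of the exposure, whereas the main tests treat all mice as independent. The number of arrays limits the precision. Alternatives were normexp and quantile normalisation, the authors' table, the filter on dim probes, the mean of all probes of a gene, slide row, that number as a random block, array weights, and leaving out each animal. Leaving out the 3 animals with high olfactory bulb markers was chosen after seeing the data.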

Additional observations from a re-analysis of the deposited data

Results flagged for a closer look

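In groups of 4 animals, the highest or lowest sample was set against its neighbours by Dixon's test for the 32 members and 10 marker lists in both groups. Chance flags about 1 in 20 of such groups, and 5 of 84 were flagged. Angptl4 in MS 7.6 was 1.39, against 1.13 to 1.15 in the other MS mice (gap over range 0.91). Glcci1 in control 8.2 was 2.69, against 2.60 to 2.61 in the other controls (0.895). The mean deviation of the striatal markers was 1.30 in control 8.4, against -0.26 to -0.06 in the other controls (0.872). That of the astrocyte markers was 0.13 in control 8.4, against -0.04 to -0.02 (0.882). That of the mural and meningeal markers was -0.28 in control 8.5, against 0.16 to 0.25 (0.83). The summed astrocyte signal was instead lowest in control 8.4 (227), and its brightest marker, Aldoc, weighs most in that sum.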

How the results depend on the processing

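Under every alternative 0 probes, 0 members and 0 further pathway genes passed the adjusted threshold. For the exact permutation test, whose smallest p is 0.0286, a single probe cannot pass after adjustment. The fits within a slide row held 2 arrays of each group, so that their 0 also adds little. The smallest adjusted p of a member was 0.421, with the number before the point as a random block. Its estimated correlation was negative (-0.224), so that animals sharing a number were less alike than others. The median fold change of the members stayed between -0.08 and 0.04. Fold changes correlated at 0.918 with those of the authors' table over 32946 shared probes, which are not independent. Leaving aside Gjb6, which was 0.00 and ran from -0.12 to 0.11, 68 of 620 fold changes of members under the alternatives had the opposite sign at 2 decimals, and 8 members never turned. Leaving out control 8.4 turned 8 members and moved 12 further ones by over 1.5 times (Gjb6, 0.00 with all mice, was 0.01), which put 18 members above 0, against 13 with all mice, and array weights, which gave control 8.4 the lowest weight (0.314), put 20 members above 0. With the mean of all probes, groups stood apart for 1 member, Glcci1, of whose probes only the dimmest separated them. The share of all genes standing apart was not computed for this setting. Groups stood apart for 2 members without the 3 mice with bulb markers (Sult1a1 and Map3k6, MS lower, against 11.3% of all genes). When 1 mouse was left out, they stood apart for 0 to 4 members (4 without control 8.2, 2 without MS 7.1). The number of members with an r of at least 0.8 with Fkbp5 ran from 2 to 5 when 1 mouse was left out (5 without control 6.2). It was 2 with the mean of all probes, and 4 with quantile normalisation and in the authors' table. Where a cause is not named, the cause was not tested.

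With array weights, the fold changes that turned were Arrdc2 0.07, Bcl6 0.03, Cdkn1a 0.01, Cebpd 0.15, Fkbp4 -0.01, Fkbp5 0.01, Nedd9 0.04, Pdk4 0.05, Plin4 0.03, Tiparp 0.10 and Zbtb16 -0.06. Without control 8.4, control 8.5 and MS 7.6 they were Arrdc2 0.05, Bcl6 0.03, Cebpd 0.05, Hsd11b1 -0.11, Mt1 0.04 and Plin4 0.05. With the mean of all probes they were Cdkn1a 0.07 and Mt1 0.09, and with normexp Cebpd 0.01, Fkbp4 -0.01 and Pdk4 0.01. Within the first slide row they were Cebpd 0.12, Lcn2 -0.86, Nedd9 0.06, Pdk4 0.07, Tiparp 0.10, Tsc22d3 -0.03 and Zbtb16 -0.15, and within the second Ddit4 -0.02, Errfi1 -0.04, Fam107a 0.09, Klf9 -0.02, Map3k6 0.14, Nr3c1 -0.04, Plin4 0.35, Sgk1 -0.04 and Sult1a1 0.14. Fkbp4 was -0.02 with the random block, and Zbtb16 was -0.01 with quantile normalisation and -0.01 in the authors' table. When 1 mouse was left out, the fold change ran from -0.14 to 0.03 for Arrdc2, -0.36 to 0.18 for Cdkn1a, -0.10 to 0.17 for Cebpd, -0.05 to 0.10 for Fkbp4, -0.01 to 0.20 for Hsd11b1, -0.29 to 0.55 for Lcn2, -0.16 to 0.02 for Map3k6, -0.13 to 0.06 for Nedd9, -0.05 to 0.02 for Pdk4, -0.31 to 0.09 for Plin4, -0.02 to 0.25 for Sgk1, -0.10 to 0.11 for Tiparp and -0.11 to 0.12 for Zbtb16. No paired analysis was possible because the groups share no animal numbers.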
